A study of Mus musculus with 12 samples.

Results

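The genes described here are those of the extracellular matrix and of the metalloproteases that cut it. They were taken by symbol from the 21896 protein-coding genes of the RefSeq annotation of GRCm38, as all collagens, laminins, fibrillins, fibronectin (Fn1), perlecan (Hspg2), matrix metalloproteinases (Mmp), ADAM and ADAMTS genes, and the tissue inhibitors of metalloproteinases (Timp). The rule gave 144 genes, of which 59 were matrix genes, 76 belonged to the protease families, 5 were ADAMTS-like genes (Adamtsl) and 4 were inhibitors. A called site counted for a gene when its position fell inside the gene's span or up to 5 kb from either end. Of the 2798 called CpG sites of the series, 27 lay at 21 of these genes, and no site was shared by members.

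The study used reduced representation bisulfite sequencing (RRBS), which enriches CpG-rich restriction fragments and reads methylated cytosines as those that resist conversion by bisulfite. The samples were 12 libraries of genomic DNA labelled splenic CD11c dendritic cells, from female F1 mice of the C57BL/6 strain, all labelled as immunised with OVA. In 6 libraries the F0 mother had been given di(2-ethylhexyl) phthalate (DEHP), a plasticiser, at 37 µg per kg of body weight daily for 10 days, and in the other 6 she had been given corn oil as the vehicle. The dams were then mated with males that had received no treatment, and the labels give 6 to 8 weeks as the age at which the mice were obtained. The labels do not give the number of mothers or litters, and the extraction protocol mentions spleen tissue as well as dendritic cells. CD11c is also found on cells other than conventional dendritic cells, and a methylation table has no transcript level by which the labelled cell type could be checked.

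All values are from the authors' deposited table, which compares the groups as wholes and has no column per library. Therefore no mean, SD or test over the 12 libraries could be computed, no difference below carries a replicate error, and the read depth at each site is unknown. Each difference is in percentage points of methylation. A positive value (a gain) is taken to mean that the maternal DEHP group was the more methylated, from the deposited division into hypermethylated and hypomethylated sites. The order of subtraction itself is not stated in the labels or the table. The table holds only sites with an absolute difference of at least 25 points, and the largest q-value in it is 3.62e-05. A gene without a called site may thus have had a smaller difference, a difference with a larger q-value, or no covered CpG.

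The extracellular matrix is the scaffold outside cells. Collagens form its fibrils and networks, laminins and perlecan build basement membranes, and fibrillins form the microfibrils on which elastic fibres assemble. MMPs and ADAMTS enzymes cut these proteins outside the cell, ADAMs mostly release the outer parts of membrane proteins, and TIMPs block many of these enzymes. In the spleen, reticular cells and the endothelium make most of the matrix, and dendritic cells use metalloproteases when they cross it and when they shed surface proteins. Methylation of CpGs at a promoter is often, but not always, linked to low transcription, and no transcript was measured in these libraries.

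The sequence below is the RefSeq promoter window of Col9a2, which is shown because it holds the site with the largest difference of the whole deposited table. Col9a2 encodes a chain of collagen IX, a fibril-associated collagen of cartilage. The window runs from 250 bases before the annotated start to 50 bases from it on, at chr4:121039316-121039615 of GRCm38.p6, plus strand. It is printed 5′ to 3′ in lower case, with the called CpG in capitals.
Col9a2: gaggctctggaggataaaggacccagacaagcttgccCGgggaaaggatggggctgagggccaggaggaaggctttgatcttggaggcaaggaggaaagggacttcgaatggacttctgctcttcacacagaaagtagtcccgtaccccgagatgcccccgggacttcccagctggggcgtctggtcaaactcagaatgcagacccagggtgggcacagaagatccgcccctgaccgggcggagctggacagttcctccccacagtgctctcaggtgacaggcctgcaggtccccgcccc

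The called cytosine is base 38 of this window and lies 213 bp before the annotated start. It is the second base of a CCGG, the motif cut by MspI, the enzyme most used for RRBS. The labels do not name the enzyme. The window holds 10 CpGs, of which this was the one called, and 3 CCGG motifs, which begin at bases 37, 159 and 235. CCGG reads the same on both strands and occurs in 62.2% of the 21262 promoter windows of protein-coding genes. The GC box GGGCGG, searched on both strands, occurs 3 times in the window. It occurs at least once in 46.2% of the windows of protein-coding genes, and the share with 3 or more was not computed. These are matches of letters, and nothing about the binding of a factor was measured.

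A second window is shown because 2 called sites lie directly after it, at the start that the promoter table gives. Col6a5 encodes a chain of collagen VI, which forms beaded filaments. Its window is chr9:105960594-105960893 of GRCm38.p6, minus strand, printed 5′ to 3′ with every CpG in capitals.
Col6a5: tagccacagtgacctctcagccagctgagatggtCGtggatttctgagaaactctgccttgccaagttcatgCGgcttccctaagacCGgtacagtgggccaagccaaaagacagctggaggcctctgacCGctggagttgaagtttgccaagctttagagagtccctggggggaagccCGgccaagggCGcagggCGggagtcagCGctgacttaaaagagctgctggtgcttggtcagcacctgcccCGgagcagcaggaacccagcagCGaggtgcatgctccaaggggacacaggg

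None of the 10 CpGs of this window was called. The called sites lay 10 and 29 bases beyond its last base. The window holds 3 CCGG motifs, as that of Col9a2 does, and 1 GC box.

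Of the 144 genes, 21 (14.6%) had a called site, against 6.51% of all protein-coding genes (1425 of 21896). Matrix genes and proteases had close shares, 16.9% (10 of 59) and 14.5% (11 of 76). All 4 Timp genes and all 5 Adamtsl genes were without one. The share of genes depends on how long they are, and the median span was 49.1 kb for the 144 genes against 17.1 kb for all protein-coding genes. Among spans under 20 kb, 11.4% of the members (5 of 44) and 4.09% of all protein-coding genes had a called site. At 20 to 50 kb the shares were 12.9% (4 of 31) and 6.01%, and at 50 to 150 kb they were 17.9% (7 of 39) and 10.0%. Over 150 kb the order turned, with 16.7% (5 of 30) against 19.5%. At the shares that all protein-coding genes of the same length classes had, 13.4 of the 144 genes would carry a called site, where 21 did. These are descriptions of the list of called sites, and no test of the difference was made. The length classes were chosen after the values were seen. They take no account of how many CpGs were covered in each gene, which is unknown.

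**Figure D1:**
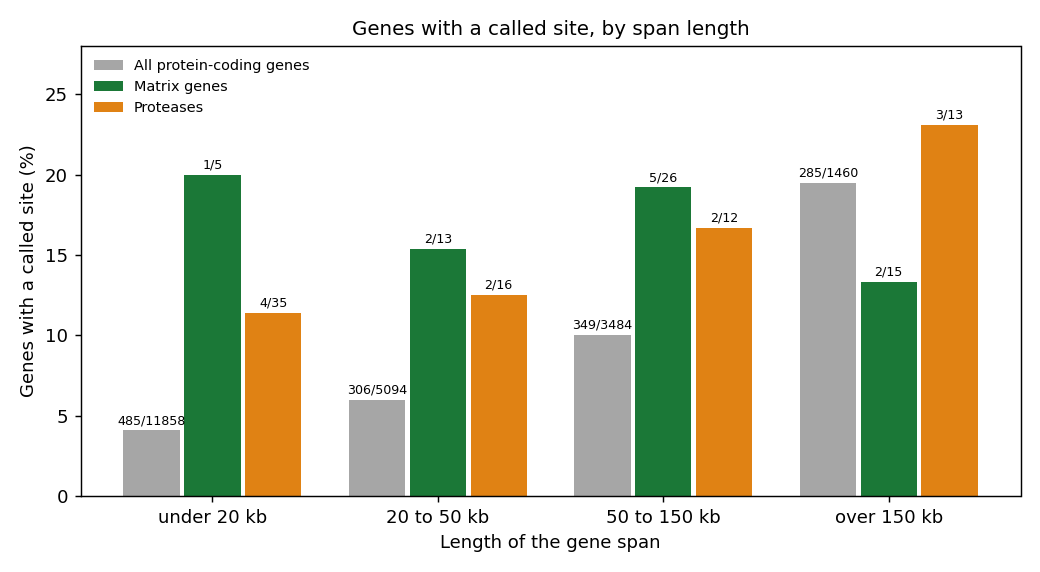
Share of genes with a called site (vertical axis, %) by length of the gene span (horizontal axis, 4 classes) for all protein-coding genes, matrix genes and proteases, with called and total genes printed above each bar. Bars of both classes exceed the grey bar up to 150 kb, and over 150 kb the matrix genes (2 of 15) lie below it and the proteases (3 of 13) above it.

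Matrix genes and proteases differ in length too, with median spans of 114 kb and 22.1 kb. Counted by length of sequence, with overlapping windows joined, matrix genes had 1.84 called sites per Mb (15 sites in 8.15 Mb) and proteases 2.19 (12 sites in 5.48 Mb). All protein-coding genes together had 1.39 per Mb. At the shares of their length classes, 6.52 matrix genes and 6.13 proteases would have carried a site, against 10 and 11. Here too covered CpGs were not taken into account. The class with the higher share of genes thus had the lower density of sites. The difference between the classes was not tested.

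The counts by direction differed between the classes over all their called sites, and how they compared depended on the size limit. At matrix genes 4 sites gained and 11 lost methylation, so that 26.7% of sites gained, and at proteases 6 gained and 6 lost (50%). Among the sites that differed by 30 points or more, 3 gained and 4 lost at matrix genes (42.9% gaining) and 2 gained and 3 lost at proteases (40%). At 40 points or more, 2 of 2 sites gained at matrix genes and 0 of 1 at proteases. Among all called sites 48.4% gained (1354 of 2798). Counted by gene, 6 matrix genes had losses alone, 1 had a gain alone and 3 had both directions, while 5 proteases had losses alone, 6 had gains alone and none had both. With sites within 1 kb merged into loci, 4 matrix loci gained and 10 lost, and 6 protease loci gained and 5 lost. With 15 and 12 sites in all, and no value per library, whether the classes differ in direction was not tested. Of the 1425 protein-coding genes with a called site, 600 had gains alone, 663 had losses alone and 162 had both. As shares of all protein-coding genes, 3.48% had a gain and 3.77% a loss, each including the 0.740% with both directions.

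**Figure D2:**
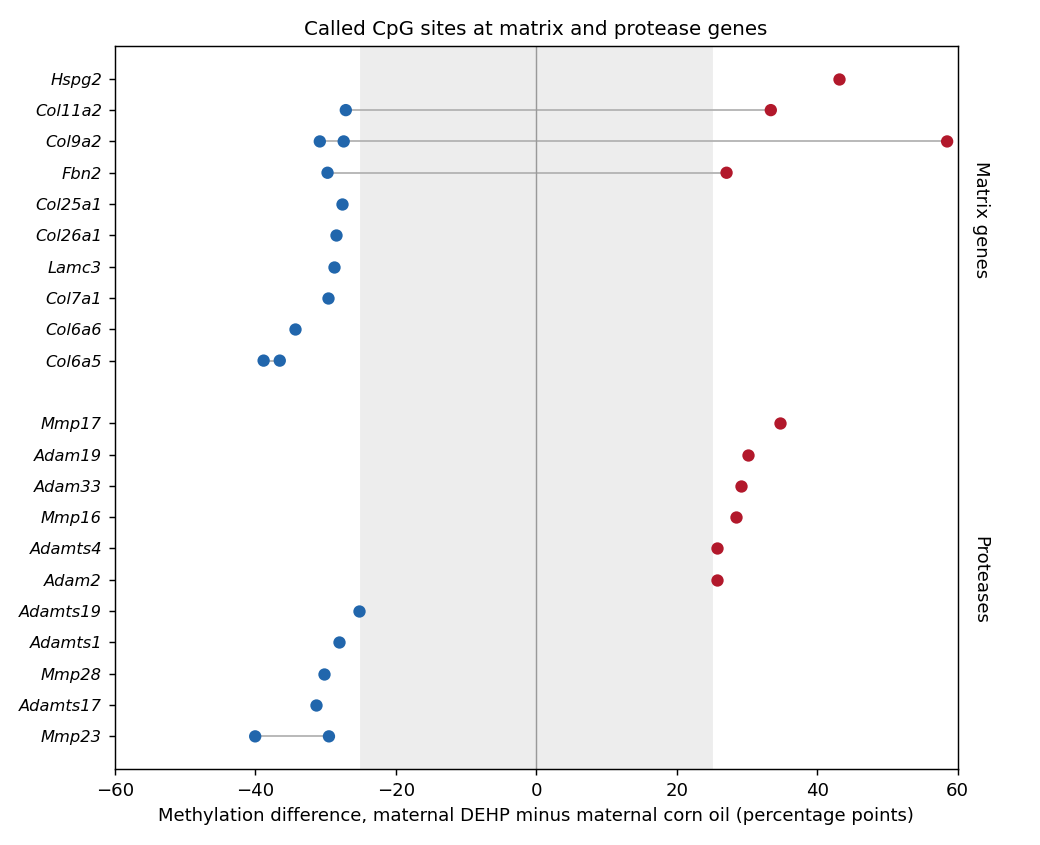
Methylation difference in percentage points (horizontal axis) at each called site of 10 matrix genes (upper block) and 11 proteases (lower block). Each point is 1 CpG of the authors' deposited table, red for a gain and blue for a loss, grey lines join sites of 1 gene, and the grey band covers differences too small to be listed. Col9a2 reaches furthest right at 58.5 points, and 3 matrix genes have points on both sides of the band.

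For the counts by family below, 6.51% of all protein-coding genes had a called site, and 10.0% of those with spans of 50 to 150 kb. Among the fibril-forming collagens, 1 of 11 genes had called sites. This was Col11a2, which encodes a chain of collagen XI, a minor partner of cartilage fibrils (span chr17:34038919-34066684). In the authors' deposited table its site at 34039670, 532 bp after the annotated start, differed by -27.1 points. A site at 34052676, 13.0 kb further on and 49.5% of the way along the span, differed by 33.4 points (q = 6.72e-12). The called CpG near the start thus lost methylation, and the called CpG in the middle of the span gained it. The first of these sites also lies within 5 kb of Rxrb, a retinoid X receptor gene, so it does not belong to Col11a2 alone.

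Of 9 fibril-associated collagens, 1 had called sites, again with both directions. Col9a2 spans chr4:121039566-121055325, and besides the promoter site at 121039353 (58.5 points, rank 1 of 2798 by size) it held losses at 121045951 (-30.8 points) and 121052557 (-27.4 points) in the authors' deposited table. These lie 40.5% and 82.4% of the way along the span, and each is 6.61 kb or less from the next called site. The gain was therefore a lone CpG, without a called neighbour within 1 kb. The authors' q-value was 0 for all 3 sites.

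Collagen VI had called sites at 2 of 6 genes, and all 3 sites were losses. Col6a5 (span chr9:105856070-105962463) differed by -38.8 points at 105960565 and by -36.5 points at 105960584 in the authors' deposited table, 78 and 59 bp after the start of the promoter table. The gene span reaches 1.82 kb further upstream than that start, so from the end of the span the sites lie 1898 and 1879 bp inside the gene, and which start is used in these cells was not measured. These sites are 19 bp apart and ranked 199 and 318 of all sites by size. Col6a6, its neighbour on the chromosome (chr9:105689417-105828246), encodes a similar chain and differed by -34.4 points at 105704473. That site lies 124 kb after the annotated start, 89.2% of the way along the span, so that the losses of the neighbouring genes lie in different parts of them. Collagen VI was the matrix family in which every called site had an absolute difference over 30 points.

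The other collagens had 1 site each, all losses between -27.6 and -29.6 points. Col7a1 encodes the collagen of the anchoring fibrils that fasten skin epithelium to the dermis, and its site at chr9:108958577 differed by -29.6 points (q = 6.49e-14). Col26a1, a collagen of the developing gonads, differed by -28.5 points at chr5:136766855 (q = 3.5e-07). Col25a1, a transmembrane collagen of nerve cells, differed by -27.6 points at chr3:130303964, 123 kb after the annotated start. Of all 44 collagen genes, with a median span of 114 kb, 7 had a called site (15.9%). The share was 10.0% for all protein-coding genes of 50 to 150 kb. Of the 11 collagen sites, 9 were losses. The 2 gains were those of Col9a2 and Col11a2.

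The 6 genes of collagen IV, the network of basement membranes, had no called site. They lie in pairs that share a promoter region. The spans of Col4a1 and Col4a2 and of Col4a3 and Col4a4 overlap at their heads, and Col4a5 and Col4a6 on the X chromosome are 1.27 kb apart. No called site lay between the members of any of these pairs.

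Laminins had 1 called gene of 11. Lamc3, which encodes a gamma chain (chr2:31887281-31949083), differed by -28.8 points at 31901194 (q = 2.51e-14). Of the 4 other matrix glycoproteins, Hspg2 and Fbn2 had called sites. Hspg2, the gene of the heparan sulfate proteoglycan perlecan (chr4:137468751-137570630), gained 43.1 points at 137484149 in the authors' deposited table, 15.3 kb after the annotated start. This was rank 89 of 2798 by size and the only matrix gene with a gain alone. Fbn2, the gene of a fibrillin of developing tissue (chr18:58008623-58210572), differed by -29.7 points at 58194835 and by 27.1 points at 58202474 (q = 4.24e-10), 7.64 kb apart. Fn1 had none, and its nearest called site lay 269 kb away.

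Among the proteases, all 3 called ADAM genes had a gain. Of 34 ADAM genes these were 8.82%, the lowest share of the 3 protease families. The median ADAM span was 17.6 kb, and 4.09% of all protein-coding genes under 20 kb had a called site. Adam19, which sheds membrane proteins and is known from dendritic cells and from the heart, gained 30.1 points at chr11:46142825. The site lies 95.1% of the way along the span and 14.9 kb after the nearest of 3 annotated starts. Adam33, known as a susceptibility gene for asthma, gained 29.1 points at chr2:131055360 (q = 5.43e-09). Adam2 encodes fertilin beta, a sperm surface protein without protease activity, and gained 25.8 points at chr14:66077822, which is 29 bp inside one end of its span.

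ADAMTS genes, with a median span of 114 kb, were called at 4 of 19 (21.1%), with 1 gain and 3 losses. Of all protein-coding genes, 10.0% at 50 to 150 kb and 19.5% over 150 kb had a called site. Adamts4 and Adamts1 encode enzymes that cut aggrecan and versican, and their directions were opposite. Adamts4 gained 25.8 points at chr1:171256810, and Adamts1 differed by -28.1 points at chr16:85800049 (q = 1.95e-06, the largest of the 27 sites), 3.06 kb after its annotated start. Adamts17, which is linked to fibrillin microfibrils, differed by -31.4 points at chr7:66998907, 159 kb after the annotated start. Adamts19 differed by -25.2 points at chr18:58931000, the smallest difference of the 27 sites, and this site also lies in the span of the pseudogene Gm18088.

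MMP genes were called at 4 of 23 (17.4%), with 2 gains and 3 losses. Of all protein-coding genes, 4.09% under 20 kb and 6.01% at 20 to 50 kb had a called site. Both gains were at membrane-type enzymes, which stay on the cell surface, and 2 of the 6 genes of this kind were called. This subgroup was not planned and holds 2 called sites, and 48.4% of all called sites gained. Whether it differs in direction was not tested. Mmp17 gained 34.7 points at chr5:129589386, and Mmp16 gained 28.5 points at chr4:17865710. Mmp23, which is cut loose from the membrane on its way out of the cell, differed by -40 points at chr4:155652378 and by -29.5 points at 155652476 (q = 7.75e-10), 98 bp apart. Both sites lie under 1 kb after the nearer of 2 annotated starts (912 and 814 bp) and also within 5 kb of Cdk11b and Mib2. Mmp28, a secreted enzyme of skin and testis, differed by -30.2 points at chr11:83443317 (q = 4.97e-15), 88.6% of the way along its span. That site also lies within 5 kb of the protein-coding gene 1700020L24Rik and the long noncoding RNA gene Gm51913. The MMP genes are short, with a median span of 12.7 kb. They had 5 sites in 0.848 Mb (5.90 per Mb), against 1.59 per Mb at ADAMTS genes and 1.42 at ADAM genes. The MMP density thus rests on few sites, the Mmp23 pair among them, and the density at other short genes was not computed.

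**Figure D3:**
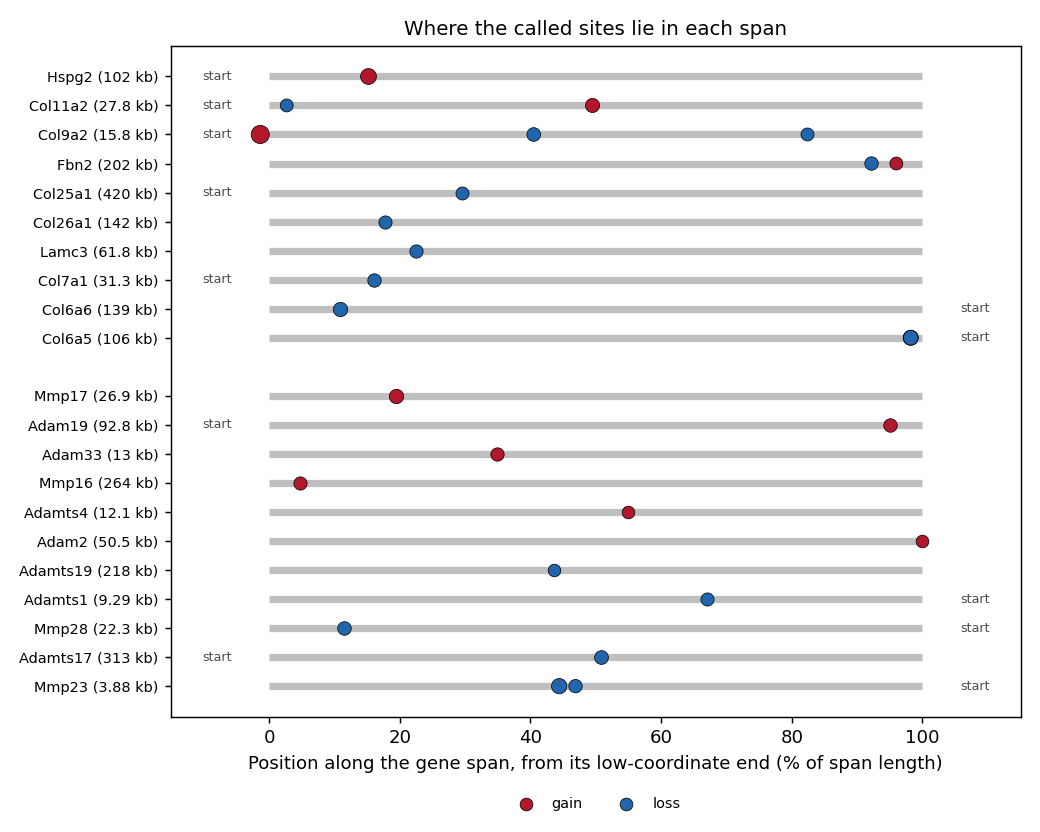
Position of the 27 called sites along each gene, as % of span length from the low-coordinate end (horizontal axis), with span lengths beside the symbols. Red points are gains and blue points losses, and the point area grows with the absolute difference. Where a promoter window was matched, "start" marks the upstream end of the span by strand, which need not be nearest the annotated start. Sites lie from -1.35% (Col9a2, outside the span) to 99.9% (Adam2).

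The sizes of the 27 differences were like those of the deposited table as a whole. Of the 27 sites 15 (55.6%) differed by less than 30 points, near the 60.6% of all called sites, and 3 differed by 40 points or more, those of Col9a2, Hspg2 and Mmp23. The median absolute difference was 29.7 points at matrix genes, 29.3 at proteases and 29.1 over all protein-coding genes. The authors' q-value was 0 for 18 of the 27 sites (66.7%) and for 74.1% of all called sites.

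**Figure D4:**
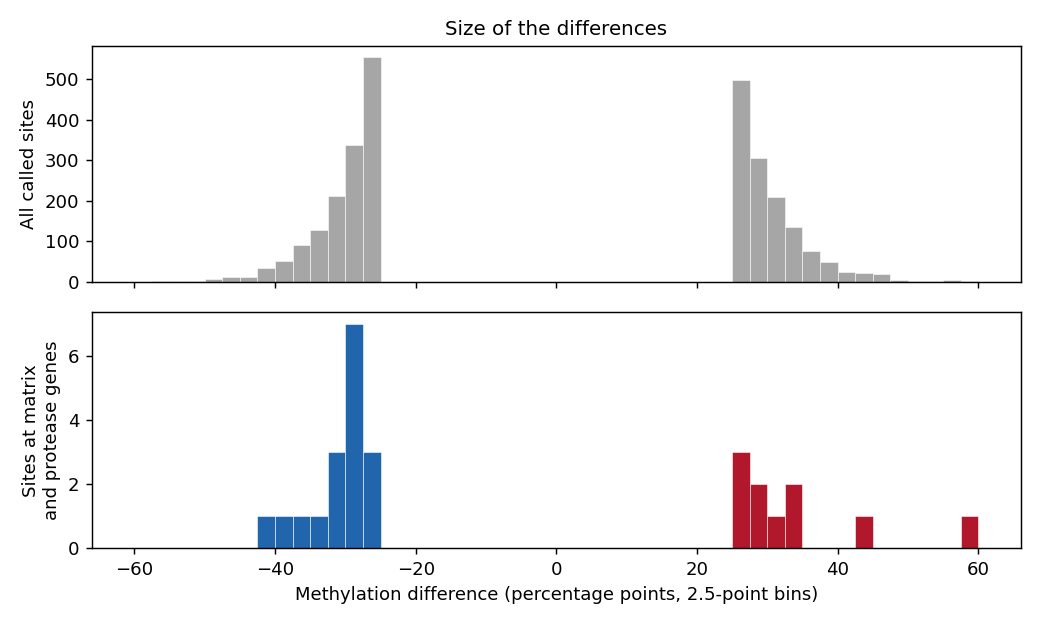
Number of called sites (vertical axes) by methylation difference in bins of 2.5 percentage points (horizontal axis), for all 2798 sites (upper panel) and the 27 sites at matrix and protease genes (lower panel, red for gains and blue for losses). Both panels are empty between -25 and 25 points, the limit of the deposited table, and the bar furthest right is the Col9a2 promoter site.

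The sites mostly stood alone. Of 27, 4 (14.8%) had another called site within 1 kb, against 31.1% of all called sites, and these were the pairs in Col6a5 and in Mmp23. In both pairs the sites had the same direction. The genes with both directions, Col9a2, Col11a2 and Fbn2, had their nearest opposite sites 6598 bp (Col9a2), 7639 bp (Fbn2) and 13006 bp (Col11a2) apart. In all, 16 members had 1 site, and 5 of the 144 had 2 or more. Of all protein-coding genes, which are shorter by median span, 1.51% had 2 or more. That share was not computed for genes of like length. Of the sites, 26 lay inside the span of the gene and 1, that of the Col9a2 promoter, outside it. On chromosome 4 lay 7 of the sites, at 4 of its 9 members (Mmp16, Col9a2, Hspg2 and Mmp23). Of all called sites 7.68% (215) lay on this chromosome, and 7.68% of its protein-coding genes (102 of 1328) had a called site. The chromosome was singled out after its values were seen, and its count was not tested. The 3 members on the X chromosome had none.

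Distances to the annotated start could be read for 12 of the 21 called genes, since promoter windows were matched for 96 of the 144 genes (105 windows). Of the 17 sites of these 12 genes, 6 lay within 1 kb of a start in the promoter table, 2 each at Col6a5 and Mmp23 and 1 each at Col9a2 and Col11a2. Of these 6 sites, 5 were losses and 1 was a gain. Of the 17 sites, 8 lay more than 10 kb from a start.

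The promoter windows of the members varied in CpG content. Only 1 of the 27 called sites, that of Col9a2, lay in such a window, so these values do not describe the sequence or the coverage at the other called sites. The ratio of observed to expected CpG had a median of 0.577 in the 15 windows of called members (12 genes, with 3 windows of Adam19 and 2 of Mmp23) and 0.341 in the 90 windows of the others, and 0.567 over all protein-coding genes. CCGG was present in 93.3% and 50% of these windows of members. Windows of matrix genes had a median ratio of 0.456 and those of proteases 0.276, with CCGG in 58.7% and 51.0%. Within the proteases the families were far apart. The ADAMTS windows had a median ratio of 0.722 and a CCGG in 90.0%, whereas ADAM windows had 0.156 and 40% and MMP windows 0.27 and 42.9%. A called site was found at 21.1% of ADAMTS, 8.82% of ADAM and 17.4% of MMP genes, whose median spans were 114, 17.6 and 12.7 kb. The windows cover 10 of 19 ADAMTS, 18 of 34 ADAM and 18 of 23 MMP genes. The CCGG shares and the shares of called genes are therefore of unlike sets of genes. The part of CpG content in how often each family was called was not tested.

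**Figure D5:**
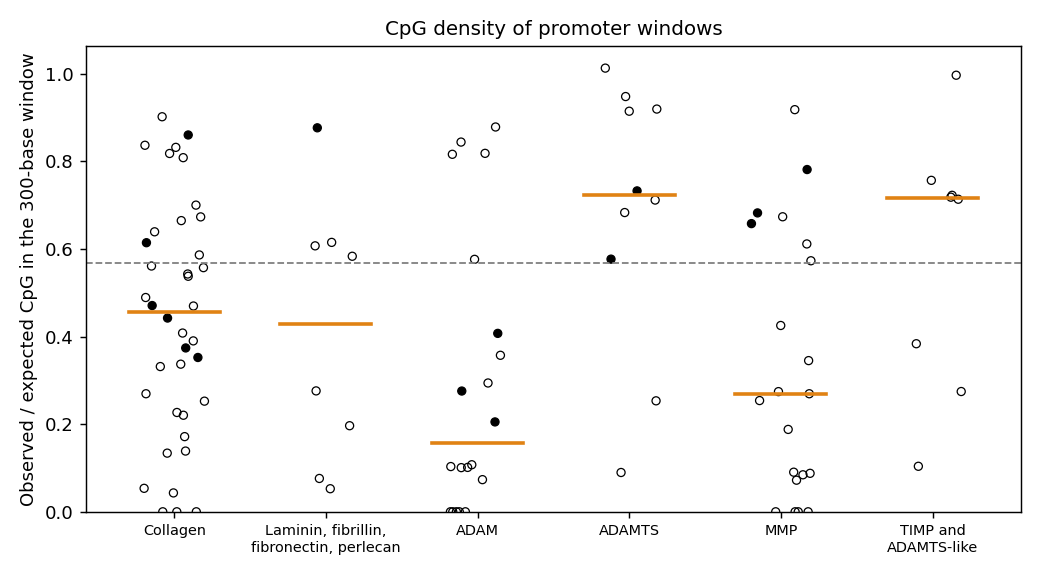
Ratio of observed to expected CpG (vertical axis) in the 105 promoter windows of 300 bases, by gene family; each point is a window, filled where the gene had a called site, and the orange bars are family medians. The dashed line is the median over protein-coding genes (0.567), and the ADAM (0.156) and MMP (0.27) medians lie well below it.

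No called site lay at 123 of the 144 genes. Some of these are very long, which gives a called site more room. Adamtsl1 (915 kb), Lama2 (636 kb), Col22a1 (355 kb), Adam12 (342 kb) and Col19a1 (330 kb) are the longest of them. The nearest called site was at a median distance of 402 kb from the 123 genes. For the inhibitors it lay 98.6 kb from Timp2, 922 kb from Timp4, 1170 kb from Timp1 and 1730 kb from Timp3, so that Timp2 was nearer than the median and the other 3 farther. Of the proteases best known from dendritic cells, Mmp9 had its nearest called site 49.5 kb away and Adam17, which releases tumour necrosis factor, 117 kb away. Both were chosen after their values were seen. The genes nearest to the 5 kb limit without reaching it were Col8a2 (9.89 kb, -29.1 points), Adam26a (11.3 kb, -42.4 points), Col6a3 (12.5 kb, -26.6 points) and Mmp14 (14.0 kb, 29.8 points). Inside the limit, the one site beyond a span was that of Col9a2, at 213 bp.

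Other genes of matrix assembly were read from a list of 64, all found in the annotation, with crosslinking enzymes, collagen processing enzymes, and further glycoproteins and proteoglycans. Of these 5 had a called site (7.81%, against 6.51% of all protein-coding genes), 2 with a gain and 3 with a loss. The median span in this list was 34.4 kb. The largest difference was at Matn4, which encodes a matrilin, with -48.7 points at chr2:164393492. Eln, the elastin gene, differed by -27.7 points, and Ltbp3, which binds latent TGF-beta, by -26.4 points. Loxl1, which crosslinks elastin, gained 29.7 points, and Emilin2, an elastic fibre glycoprotein, gained 27.2 points in the authors' deposited table.

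Short lists of 5 marker genes each were read for cells that the preparation could hold. No called site lay at the markers of conventional dendritic cells, B cells, T and NK cells or macrophages and monocytes. Of the stromal and endothelial markers, 1 of 5 had called sites, the endothelial adhesion gene Pecam1, with -25.4 and -34.7 points at chr11:106678062 and 106678265. At the 6.51% of all protein-coding genes, lists of 5 would mostly hold 0 or 1 called gene, so these counts say nothing about which cells were present.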

How the data were processed

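RRBS was done on 12 libraries, 6 per group. Per the submitters' processing notes the authors used methylKit and the build GRCm38 (mm10). The aligner, coverage minimum, test and version were not given in the sources. Per the file headers, each row of the deposited table gives a site's p-value, q-value and methylation difference in percentage points. The deposited hypermethylated (1354) and hypomethylated (1444) parts add up to the whole table of 2798 sites. Depth per sample is unknown.

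Sites were joined to RefSeq gene spans of GRCm38.p6 with pandas 2.3.3 in Python 3.11.15, and the join was tested on simulated data. The gene spans have no exons, so exonic, intronic or UTR positions are not given. Promoter windows and start sites came from the RefSeq promoter table (GRCm38.p6). The expected CpG number is C count times G count over length. All members with a called site, and all called genes of the further matrix list, are named. The members and lists were chosen with earlier results of these data known. Alternatives were differences of at least 30 or 40 points, other windows (span only, 20 kb), merging within 1 kb, autosomes only, nearest-member assignment and Adamtsl counted as proteases.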

Additional observations from a re-analysis of the deposited data

How the results depend on the processing

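With differences of at least 30 percentage points, 10 members had a called site (5 matrix genes and 5 proteases). With at least 40 points 3 did (2 and 1), since fewer sites were left. The share of all protein-coding genes was not computed under any alternative. Whether the members still exceed it there was therefore not tested. At 40 points 66.7% of the remaining sites were gains (2 of 3), against 37.0% (10 of 27) at the limit of the deposited table. By class, counted after seeing the data, the share of sites that gained at 40 points was 100% at matrix genes (2 of 2) and 0% at proteases (0 of 1). At 30 points it was 42.9% and 40%, so the order of the classes turned from that over all sites (26.7% and 50%). Under the other alternatives it was 21.4% to 31.6% at matrix genes and 50% to 54.5% at proteases. With the span alone, 20 kb around it, loci merged within 1 kb, autosomes only, nearest-member assignment, or Adamtsl genes counted as proteases, 21 to 25 members were called and gains made up 34.6% to 41.2%. Matrix genes exceeded proteases by 2.48 percentage points in the share of called genes, and by 1.9 to 3.37 points under the 8 alternatives. Several of these had little or no room to change that value. Merged loci left the same genes called, and nearest-member assignment could change nothing because no site was shared by members. The autosome and Adamtsl settings only removed or added genes without a called site. By sites per Mb the order was the other way, 1.84 at matrix genes and 2.19 at proteases. Depth is unknown, so how far it limits each value cannot be given. No paired analysis was possible because the table has no column per library, and for the same reason no library could be left out.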
